A study of Caenorhabditis elegans with 14 samples.

Results

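The NuRD and MEC chromatin complexes of the nematode Caenorhabditis elegans were followed through the transcripts of 9 genes, chosen by gene name as encoding the Mi-2 ATPases, the histone deacetylase and their partners. The genes are let-418, chd-3, mep-1, hda-1, lin-40, egl-27, rba-1, dcp-66 and lin-13, and earlier results of these data were known when they were chosen. They are 9 of the 20392 genes in the count table, and all 9 passed the low-count filter that left 9498 genes tested. RNA of early embryos was sequenced in 14 libraries of 4 genotypes, all labelled as grown at 20 °C. The hpl-2 strain (4 libraries) carries hpl-2(tm1489), an allele of the gene for the HP1 protein HPL-2. The hpl-2-FFAA strain (4 libraries) carries hpl-2-FFAA(px112), an allele that the labels do not describe further. The met-2 hpl-2 strain (3 libraries) combines met-2(n4256), an allele of a histone H3 lysine 9 methyltransferase gene, with hpl-2(tm1489) on chromosome III. It is kept over the balancer hT2, which the labels list with bli-4(e937), let-?(q782) and qIs48, and they do not say whether the embryos were all homozygous. The wild-type strain is N2 Bristol (3 libraries).

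NuRD couples a Mi-2 type ATPase, which moves nucleosomes, to a histone deacetylase, together with MTA-like, RbAp-like and p66-like subunits. In C. elegans the Mi-2 protein LET-418 also joins the zinc-finger protein MEP-1 and the deacetylase HDA-1 in a second assembly called MEC, which is known for keeping germline genes off in somatic cells. LIN-13, a further zinc-finger protein, binds HPL-2, the HP1 protein whose gene is mutated in all the mutant strains here.

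Libraries held 5332725 to 6390870 counts in hpl-2, hpl-2-FFAA and wild type, and 14313366 to 14840992 in met-2 hpl-2, so depth and genotype cannot be told apart in the double mutant. Levels are given as CPM, counts relative to library sizes scaled by the TMM method. The hpl-2 transcript stood at 4.6% of the wild-type mean in the hpl-2 strain, 68.1% in hpl-2-FFAA, and 10.5% in the double mutant, where met-2 stood at 10.2%. All 15 maternal and one-cell markers were detected in every genotype, whereas 6 vitellogenin genes of adult intestine summed to 1.47 to 4.91 CPM and 7 sperm genes to 0.165 to 2.53 CPM over the 14 libraries. Summed maternal markers reached 8116 to 9222 CPM in hpl-2, 6601 to 8005 in hpl-2-FFAA, 6758 to 7206 in met-2 hpl-2 and 6947 to 7139 in wild type. Summed early zygotic markers (12 genes) reached 925 to 1000 CPM in hpl-2, 1027 to 1064 in hpl-2-FFAA, 1183 to 1231 in met-2 hpl-2 and 1153 to 1187 in wild type. Summed differentiating-tissue markers (9 of 10 found) reached 117 to 145 CPM in hpl-2, 158 to 236 in hpl-2-FFAA, 271 to 315 in met-2 hpl-2 and 192 to 201 in wild type. Most of this sum came from pha-4 and unc-119, which averaged 109 and 54.8 CPM in wild type and 68.4 and 36.1 CPM in hpl-2. The median log2 fold change of these 9 differentiating-tissue markers in hpl-2 against wild type was 0.14. The part of these marker differences in the results below was not tested, and in whole embryos fewer cells of a type and less RNA per cell cannot be told apart. hpl-2-FFAA libraries 1 and 2 stood apart from 3 and 4. Counts of genes called on that strain are therefore also given without a pair where that changes them by over 1.5 times. This covers the 9 NuRD and MEC genes, the lists of related genes and all tested genes. Marker, library-overlap and unadjusted p counts on that strain use all 4 libraries only. All replicate pairs within a genotype (18 of 18) differed beyond sampling noise.

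In the hpl-2 strain 7 of the 9 genes fell and 0 rose against wild type, with both Mi-2 ATPase genes, mep-1, hda-1, both MTA-like genes and dcp-66 lower, where 21.6% of all tested genes were called lower. In hpl-2-FFAA 0 of the 9 passed the test, beside 0.779% of tested genes called. In met-2 hpl-2 6 rose and 0 fell, where 28.7% of tested genes were called higher and 58.1% in either direction. Only rba-1 of the 9 was called in none of these comparisons or of those with the hpl-2 strain as control. The 3 comparisons with wild type share its 3 libraries. A gene was called at an adjusted p under 0.05 in the quasi-likelihood test of edgeR, with Benjamini-Hochberg adjustment over all 9498 genes.

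**Figure D1:**
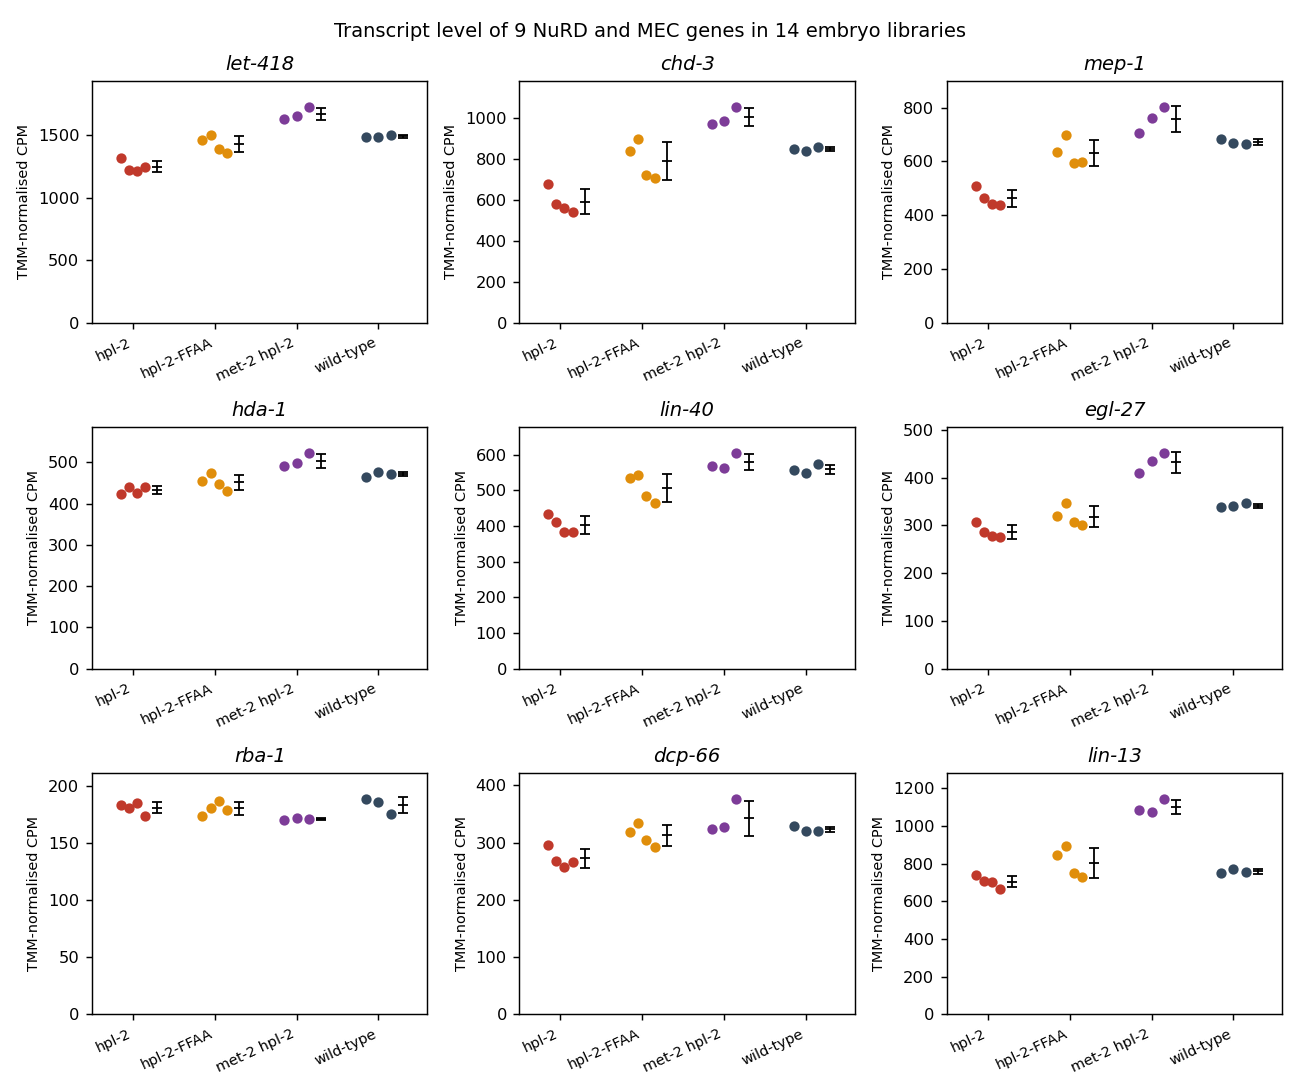
Transcript level of each gene (TMM-normalised CPM, linear axes from 0) in every library by genotype, with points for libraries and black bars for the mean ± SD of a genotype (n = 4, 4, 3 and 3). In chd-3 the hpl-2 libraries lie between 540.2 and 678 CPM, below all 3 wild-type libraries at 837 to 855 CPM, while in rba-1 the hpl-2 and wild-type points overlap.

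The Mi-2 ATPase genes were the starting point. LET-418 is the essential Mi-2 protein of both complexes, and its gene lies on chromosome V at 5826833 to 5832831 (WBcel235, plus strand). Its transcript read 1316, 1225, 1216 and 1243 CPM in the hpl-2 libraries, 1464, 1501, 1389 and 1359 in hpl-2-FFAA, 1633, 1654 and 1727 in the met-2 hpl-2 libraries, and 1484, 1489 and 1502 in wild type. All hpl-2 libraries lay below wild type and all met-2 hpl-2 libraries above it, while hpl-2-FFAA spanned the wild-type level. The log2 fold change against wild type was -0.25 in hpl-2 (SE 0.0383, adjusted p = 5.84e-05), -0.06 in hpl-2-FFAA (SE 0.0383, adjusted p = 0.66) and 0.16 in met-2 hpl-2 (SE 0.0407, adjusted p = 0.00209; edgeR, Benjamini-Hochberg).

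CHD-3 is the other Mi-2 homolog, a NuRD ATPase encoded on the X chromosome at 12846439 to 12852601 (minus strand). Its transcript read 678, 580.0, 559.5 and 540.2 CPM in hpl-2, 836, 895, 719.5 and 707 in hpl-2-FFAA, 971, 984 and 1052 in the met-2 hpl-2 libraries, and 849, 837 and 855 in wild type. The hpl-2 mean was 69.6% of wild type, with no overlap between their libraries. Against wild type chd-3 had a log2 fold change of -0.52 in hpl-2 (SE 0.0751, adjusted p = 4.07e-05), -0.10 in hpl-2-FFAA (SE 0.0751, adjusted p = 0.729) and 0.24 in met-2 hpl-2 (SE 0.0793, adjusted p = 0.0139; edgeR, Benjamini-Hochberg). Of the 9 genes chd-3 had the widest range of genotype means, 0.77 on the log2 scale, followed by mep-1 (0.71) and lin-13 (0.65).

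MEP-1 joins LET-418 and HDA-1 in MEC, and its gene lies on chromosome IV at 11524642 to 11527954 (plus strand). The transcript read 508, 463, 442 and 437 CPM in hpl-2, 636, 698, 594 and 597 in hpl-2-FFAA, 706, 761 and 803 in the met-2 hpl-2 libraries, and 683, 669 and 664 in wild type. The hpl-2 mean was 68.8% of wild type, the lowest share of the 9 genes. On the log2 scale mep-1 differed from wild type by -0.54 in hpl-2 (SE 0.0589, adjusted p = 2.86e-06), -0.09 in hpl-2-FFAA (SE 0.0587, adjusted p = 0.678) and 0.17 in met-2 hpl-2 (SE 0.0618, adjusted p = 0.0239; edgeR, Benjamini-Hochberg). The rise in met-2 hpl-2 was not called without met-2 hpl-2 replicate 2 or 3 or wild-type replicate 2 or 3 (adjusted p = 0.0607 to 0.12 in edgeR with Benjamini-Hochberg adjustment).

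HDA-1, a class I histone deacetylase, is shared by both complexes and is encoded on chromosome V at 14525389 to 14527411 (plus strand). The transcript read 423, 441, 426 and 441 CPM in hpl-2, 456, 475, 447 and 429.6 in hpl-2-FFAA, 491, 498 and 524 in the met-2 hpl-2 libraries, and 466, 477 and 472 in wild type. Its shifts were small: the log2 fold change was -0.12 in hpl-2 (SE 0.0382, adjusted p = 0.0146), -0.06 in hpl-2-FFAA (SE 0.0382, adjusted p = 0.66) and 0.10 in met-2 hpl-2 (SE 0.0400, adjusted p = 0.0462; edgeR, Benjamini-Hochberg). The call in met-2 hpl-2 was lost in 14 of 25 alternative settings, among them without wild-type replicate 1, 2 or 3, met-2 hpl-2 replicate 2 or 3, hpl-2 replicate 2, 3 or 4, or hpl-2-FFAA replicate 1 or 3. The call in hpl-2 was lost only without wild-type replicate 2 (adjusted p = 0.0527 in edgeR with Benjamini-Hochberg adjustment).

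The MTA-like subunits of NuRD are LIN-40 and EGL-27. LIN-40, encoded on chromosome V at 3704988 to 3712796 (plus strand), read 435, 412, 382 and 383 CPM in hpl-2, 533, 543, 484 and 464 in hpl-2-FFAA, 569, 564 and 606 in the met-2 hpl-2 libraries, and 556, 549 and 573 in wild type. All libraries of hpl-2 and of hpl-2-FFAA lay below wild type, and met-2 hpl-2 overlapped it. The log2 fold change of lin-40 was -0.47 in hpl-2 (SE 0.0547, adjusted p = 4.66e-06), -0.14 in hpl-2-FFAA (SE 0.0545, adjusted p = 0.359) and 0.05 in met-2 hpl-2 (SE 0.0573, adjusted p = 0.467; edgeR, Benjamini-Hochberg). Scaling by library size alone turned the met-2 hpl-2 value to -0.0368.

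EGL-27, the other MTA-like protein, is encoded on chromosome II at 6835008 to 6847908 (plus strand). Its transcript read 306, 287, 277 and 275 CPM in hpl-2, 320.5, 348, 307 and 299.8 in hpl-2-FFAA, 409, 435 and 452 in the met-2 hpl-2 libraries, and 338, 341 and 346 in wild type. All met-2 hpl-2 libraries lay above all others and all hpl-2 libraries below wild type. The log2 fold change was -0.26 in hpl-2 (SE 0.0513, adjusted p = 0.000736), -0.10 in hpl-2-FFAA (SE 0.0513, adjusted p = 0.553) and 0.34 in met-2 hpl-2 (SE 0.0531, adjusted p = 2.95e-05; edgeR, Benjamini-Hochberg).

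RBA-1 is an RbAp-like WD-repeat protein, related to LIN-53 and encoded on chromosome I at 9616516 to 9618107 (minus strand). It varied little: 183, 180.5, 185 and 174 CPM in hpl-2, 173, 181, 187 and 179 in hpl-2-FFAA, 169.9, 172 and 170.4 in the met-2 hpl-2 libraries, and 189, 185 and 175 in wild type. Its genotype means spanned 0.10 on the log2 scale, the narrowest range of the 9. The log2 fold change was -0.02 in hpl-2 (95% interval -0.11 to 0.07, adjusted p = 0.747) and -0.02 in hpl-2-FFAA (-0.11 to 0.06, adjusted p = 0.915; edgeR, Benjamini-Hochberg). In met-2 hpl-2, where all 3 libraries lay below wild type, it was -0.10 (-0.19 to -0.01, adjusted p = 0.0539 in edgeR with Benjamini-Hochberg adjustment). That value passed the threshold as lower in 9 of 25 alternative settings, among them without wild-type replicate 3 or without hpl-2-FFAA replicate 2 or 3.

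DCP-66, the p66-like NuRD subunit, is encoded on chromosome I at 7536104 to 7542159 (minus strand). Its transcript read 297, 269, 258 and 267 CPM in hpl-2, 319, 334, 304 and 293 in hpl-2-FFAA, 323, 327 and 377 in the met-2 hpl-2 libraries, and 329, 321 and 319.9 in wild type. It fell by 0.25 in hpl-2 on the log2 scale (SE 0.0588, adjusted p = 0.0028 in edgeR with Benjamini-Hochberg adjustment), and the hpl-2 libraries did not overlap wild type. In hpl-2-FFAA the log2 fold change was -0.05 (SE 0.0587) and in met-2 hpl-2 0.08 (SE 0.0609), neither of them called. With library size alone the met-2 hpl-2 value was -0.0049.

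LIN-13, encoded on chromosome III at 7700338 to 7709491 (minus strand), showed the largest rise of the 9 in the double mutant. Its transcript read 739, 708, 702 and 667 CPM in hpl-2, 846, 894, 749 and 730.4 in hpl-2-FFAA, 1088, 1077 and 1146 in the met-2 hpl-2 libraries, and 749.5, 773 and 755 in wild type. The met-2 hpl-2 mean was 145% of wild type, with every library above every other library of the study. The log2 fold change was 0.54 in met-2 hpl-2 (SE 0.0594, adjusted p = 5.14e-07 in edgeR with Benjamini-Hochberg adjustment). In hpl-2 it was -0.11 (95% interval -0.23 to 0.01, adjusted p = 0.13 in edgeR with Benjamini-Hochberg adjustment), although its 4 libraries lay below wild type. That value passed the threshold as lower in 5 of 25 alternative settings. In hpl-2-FFAA it was 0.08 (-0.03 to 0.20, adjusted p = 0.697 in edgeR with Benjamini-Hochberg adjustment), with overlapping libraries.

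**Figure D2:**
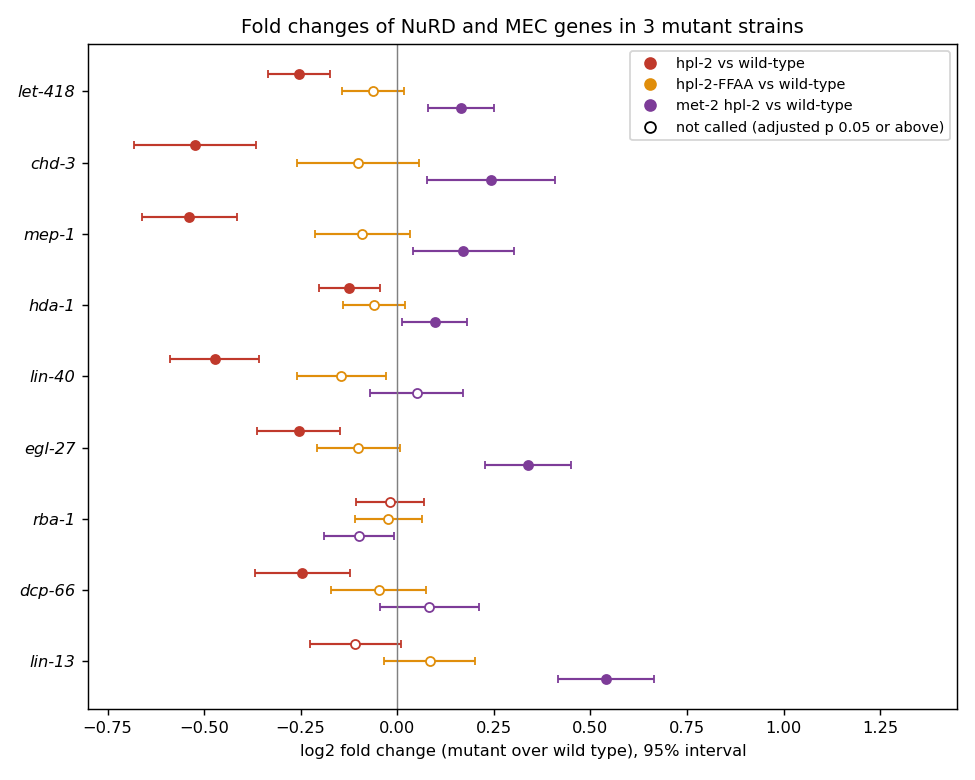
Log2 fold change of each gene over wild type in each mutant strain (points, with 95% intervals from the edgeR fit as bars). Filled points are called at an adjusted p under 0.05 and open points are not: 7 filled points in hpl-2 lie left of 0, the 9 of hpl-2-FFAA are open, and 6 filled points in met-2 hpl-2 lie right of 0, with lin-13 farthest at 0.54.

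Set against all genes tested, the 7 called lower in hpl-2 are 77.8% of the members, where 21.6% of all tested genes were called lower and 41.8% were called in either direction. Since earlier results of these data were known when the members were chosen, such shares are descriptive. All but rba-1 (8 of 9) had hpl-2 libraries wholly below wild type, against 24.9% of tested genes. The median log2 fold change was -0.25 over the members and 0.00 over all genes. The members are abundant transcripts, at the 93.5th to 99.8th percentile of wild-type levels, and of the 1668 genes averaging 150 CPM or more 29.3% were called lower. Leaving out any single library kept 6 or 7 of the calls. In the same comparison 9 of 15 maternal markers rose and 0 fell, 8 of 12 early zygotic markers fell and 0 rose, and of 9 differentiating-tissue markers 1 rose and 3 fell.

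In hpl-2-FFAA the 0 calls stand beside 0.779% of tested genes called. At an unadjusted p under 0.05 there was 1 of 9 members, lin-40, beside 933 of 9498 tested genes, and DESeq2 also called 0 members. The median log2 fold change was -0.06 over the members and 0.00 over all genes. Libraries lay wholly below wild type for lin-40 alone, against 4.82% of tested genes. In the same comparison 2 of 12 early zygotic markers fell and 0 rose, where 0.232% of tested genes were called lower. Of 15 maternal and 9 differentiating-tissue markers 0 were called. The count of members called depended on the libraries used. Without hpl-2-FFAA replicates 1 and 2, 5 members were called lower (let-418, chd-3, mep-1, lin-40 and egl-27), where 488 of 9715 tested genes were. In that fit chd-3 stood at -0.25 and lin-40 at -0.24. Without replicates 3 and 4, only lin-13 was called, and it was higher (0.20), where 33 of 9707 tested genes were called higher.

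In met-2 hpl-2 the 6 genes called higher (let-418, chd-3, mep-1, hda-1, egl-27 and lin-13) are 66.7% of the members. Of all tested genes 28.7% were called higher, 58.1% were called in either direction, and 36.0% of those averaging 150 CPM or more were called higher. The same 6 members had libraries wholly above wild type, against 33.6% of tested genes, and rba-1 had libraries wholly below it, against 33.4%. The median log2 fold change was 0.16 over the members and 0.00 over all genes. Of the markers, 2 of 15 maternal genes rose and 6 fell, 1 of 12 early zygotic genes rose and 8 fell, and 8 of 9 differentiating-tissue genes rose and 1 fell. With library size alone in place of TMM, which lowered the median of all genes by 0.0867, the calls were egl-27 and lin-13 higher and rba-1 lower. Without met-2 hpl-2 replicate 3 there were 3 calls, and mep-1, chd-3 and hda-1 were among those lost.

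The shares of genes called lower in hpl-2 and higher in met-2 hpl-2 also differed by gene width. They were highest over 8 kb, wider than any member. Deposited widths were 5685 bases for let-418, 5570 for chd-3 and 7238 for lin-13. The other members were narrower: 3987 bases for egl-27, 3405 for lin-40, 3052 for mep-1, 2249 for dcp-66, 1843 for hda-1 and 1345 for rba-1. Among the 506 tested genes 4 to 8 kb wide, 30.0% were called lower in hpl-2 and 44.7% higher in met-2 hpl-2, and among the 82 over 8 kb the shares were 43.9% and 82.9%. The members all average over 150 CPM. At that level the shares called lower in hpl-2 were 22.6% under 1 kb, 23.4% at 1 to 2 kb and 28.9% at 2 to 4 kb. They were 40.1% at 4 to 8 kb and 63.0% over 8 kb, with 29.3% for any width. The shares called higher in met-2 hpl-2 at that level were 51.2% under 1 kb, 32.5% at 1 to 2 kb and 31.8% at 2 to 4 kb. They were 37.02% at 4 to 8 kb and 78.3% over 8 kb, with 36.0% for any width. The part of width in the members' values was not tested.

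The hpl-2-FFAA and hpl-2 strains differ in the allele of the same gene, and 7 of the 9 members were higher in hpl-2-FFAA, all but hda-1 and rba-1. Of tested genes 18.7% were called higher in this comparison and 35.2% in either direction. mep-1 averaged 631 ± 48.5 CPM in hpl-2-FFAA and 463 ± 32.5 CPM in hpl-2 (SD, n = 4 each), a log2 fold change of 0.45 (SE 0.0551, adjusted p = 1.98e-05 in edgeR with Benjamini-Hochberg adjustment). chd-3 averaged 789 ± 91.2 CPM in hpl-2-FFAA and 589 ± 61.2 CPM in hpl-2 (log2 0.42, SE 0.0702, adjusted p = 0.000277 in edgeR with Benjamini-Hochberg adjustment). The lin-40 value was 0.33 (SE 0.0512), dcp-66 and lin-13 followed at 0.20 (SE 0.0548) and 0.19 (SE 0.0522), and let-418 and egl-27 stood at 0.19 (SE 0.0356) and 0.15 (SE 0.0479). Libraries of the strains did not overlap for let-418, chd-3, mep-1 and lin-40 (4 of 9, against 15.3% of tested genes lying wholly higher). hda-1 was at 0.06 (95% interval -0.01 to 0.14) and rba-1 at 0.00 (-0.09 to 0.08), neither of them called. The egl-27 call was lost without hpl-2 replicate 3 or 4 or hpl-2-FFAA replicate 2 (adjusted p = 0.06 to 0.0691 in edgeR with Benjamini-Hochberg adjustment). Without hpl-2-FFAA replicates 1 and 2 the calls on egl-27, dcp-66 and lin-13 were lost. That left 4 called higher, beside 832 of 9715 tested genes. Without replicates 3 and 4 hda-1 was also called higher (0.10).

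Adding met-2(n4256) to hpl-2(tm1489) went with higher levels of 8 of the 9 genes, the exception being rba-1. Of tested genes 36.0% were called higher between these strains and 71.2% in either direction. chd-3 averaged 1002 ± 43.6 CPM in met-2 hpl-2 (SD, n = 3) and 589 ± 61.2 CPM in hpl-2 (n = 4), with a log2 fold change of 0.77 (SE 0.0740, adjusted p = 5.06e-08 in edgeR with Benjamini-Hochberg adjustment). mep-1 stood at 0.71 (SE 0.0579), lin-13 at 0.65 (SE 0.0551), egl-27 at 0.59 (SE 0.0495) and lin-40 at 0.52 (SE 0.0537). Lower in size were let-418 at 0.42 (SE 0.0379), dcp-66 at 0.33 (SE 0.0570) and hda-1 at 0.22 (SE 0.0373). All libraries of met-2 hpl-2 lay above all of hpl-2 for these 8 genes, against 35.4% of tested genes, and below them for rba-1, against 34.5%. The rba-1 value was -0.08 (95% interval -0.16 to 0.00, adjusted p = 0.0774 in edgeR with Benjamini-Hochberg adjustment), and without hpl-2 replicate 4 it was called lower (-0.10). Library size alone lowered the median of all genes by 0.101 in this comparison, and the 8 genes stayed called higher while rba-1 was called lower. These strains differ in depth as well as genotype. After libraries were thinned to the smallest total, 8 members were called.

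Levels can be compared between genes only per length, here as CPM per kb of the deposited width. In wild type the order was let-418 (262 ± 1.66), hda-1 (256 ± 2.89), mep-1 (220.2 ± 3.24), lin-40 (164 ± 3.69), chd-3 (152 ± 1.65), dcp-66 (144 ± 2.09), rba-1 (136 ± 5.34), lin-13 (105 ± 1.67) and egl-27 (85.7 ± 1.05; SD, n = 3). The 8 neighbouring pairs of that order had no overlapping wild-type libraries. In hpl-2 the order began with hda-1 (235 ± 5.21) and let-418 (219.9 ± 7.96; SD, n = 4), which overlapped, and 5 of its 8 neighbouring pairs overlapped. In hpl-2-FFAA 4 of 8 pairs overlapped, and in met-2 hpl-2 2 of 8, chd-3 with lin-40 and lin-13 with dcp-66. The order depends on the length used: with the union of annotated exons (WBcel235), dcp-66 came to 87.1 in wild type, eighth of the 9, since its deposited width is 2249 bases and its exon union 3712.

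**Figure D3:**
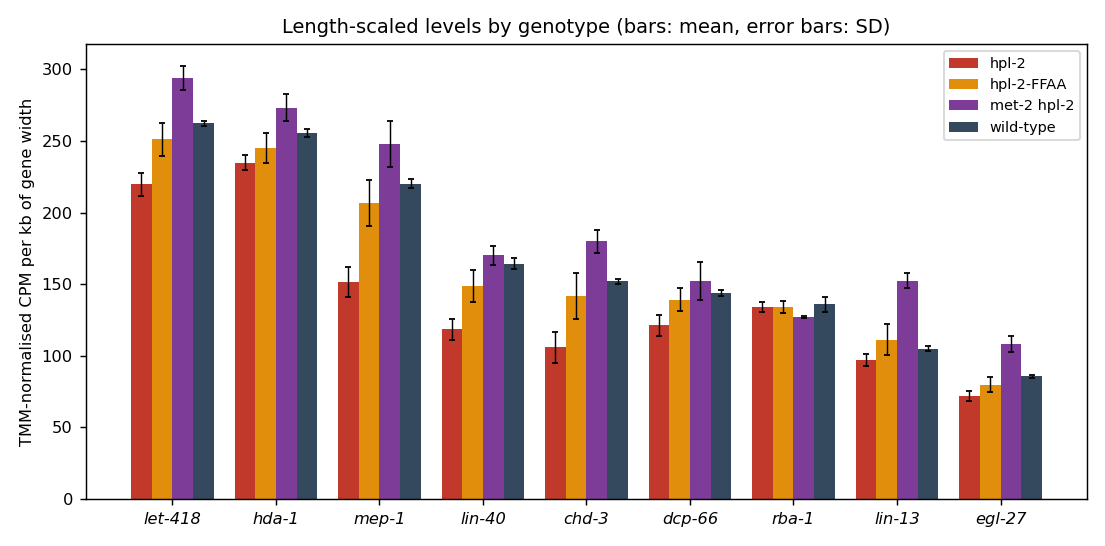
Level of each gene per length (TMM-normalised CPM per kb of deposited gene width) by genotype, with bars for the mean and error bars for the SD (n = 4 for hpl-2 and hpl-2-FFAA, 3 for met-2 hpl-2 and wild type). Genes run in the wild-type order, from let-418 at 262 to egl-27 at 85.7, and rba-1 is near level over the genotypes at 127 to 136.

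The balance between paralogs was read as a share of their summed per-length level. The share of chd-3 in chd-3 plus let-418 was 32.4% ± 1.56 in hpl-2 (SD, n = 4), 35.98% ± 1.61 in hpl-2-FFAA (n = 4), 37.96% ± 0.329 in met-2 hpl-2 (n = 3) and 36.7% ± 0.203 in wild type (n = 3). The share of egl-27 in egl-27 plus lin-40 was 37.8% ± 0.426 in hpl-2, 34.97% ± 0.737 in hpl-2-FFAA, 38.9% ± 0.826 in met-2 hpl-2 and 34.3% ± 0.353 in wild type. The shares of lin-53 against rba-1 and of hda-1 against hda-3 moved by 3.84 points or less between any groups compared. The egl-27 share moved by 3.48 points in hpl-2 against wild type. Shares of hda-1 were 79.3% to 79.9% in wild type, 77.1% to 78.99% in hpl-2 and 81.5% to 82.7% in met-2 hpl-2, without overlap. Those of lin-53 were 80.1% to 80.9% in met-2 hpl-2, apart from 77.9% to 79.02% in wild type. The lin-53 shares in hpl-2 overlapped wild type, as did both shares in hpl-2-FFAA. Library shares of chd-3 were 30.7% to 34.5% in hpl-2, against 36.5% to 36.9% in wild type, and those of egl-27 were 37.3% to 38.2% in hpl-2, against 34.02% to 34.7% in wild type, with no overlap in either pair. Two-sided exact permutation tests, 20 over these pairs and the 5 comparisons, cannot go below p = 0.0286 for 4 libraries against 3 or 4, and 0.1 for 3 against 3. After Benjamini-Hochberg adjustment the smallest exact p was 0.0952, which at these sizes does not show that shares were alike.

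The libraries of a genotype also varied together. In hpl-2-FFAA, libraries 1 and 2 both lay above libraries 3 and 4 for 8 of the 9 genes, all but rba-1, as they did for 28.4% of tested genes. The means of libraries 3 and 4 were 84.2% of wild type for chd-3, 84.7% for lin-40 and 88.6% for mep-1, and those of libraries 1 and 2 were 102%, 96.3% and 99.3%. In hpl-2, library 1 was the highest of 4 for 7 genes, all but hda-1 and rba-1, against 31.5% of tested genes. Summed maternal markers stood at 6822 and 6601 CPM in hpl-2-FFAA libraries 1 and 2 and at 7870 and 8005 in libraries 3 and 4, and hpl-2 library 1 had the lowest sum of its genotype, 8116 CPM. Summed differentiating-tissue markers stood at 202 and 236 CPM in hpl-2-FFAA libraries 1 and 2 and at 167 and 158 in libraries 3 and 4, and hpl-2 library 1 had the highest sum of its genotype, 145 CPM. The part of these markers in the libraries' differences was not tested. With the main axis of such within-genotype differences as a covariate, 4 members (chd-3, mep-1, lin-40 and egl-27) were called lower in hpl-2-FFAA than in wild type. Their log2 fold changes were -0.09 to -0.15, and 219 of 9498 tested genes were called lower in that fit. That axis was computed from these same libraries after genotype means were removed, so it lowers the scatter within genotypes. The lin-40 value was -0.144 without the covariate and -0.147 with it. These calls are therefore not separate support for lower levels in hpl-2-FFAA.

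**Figure D4:**
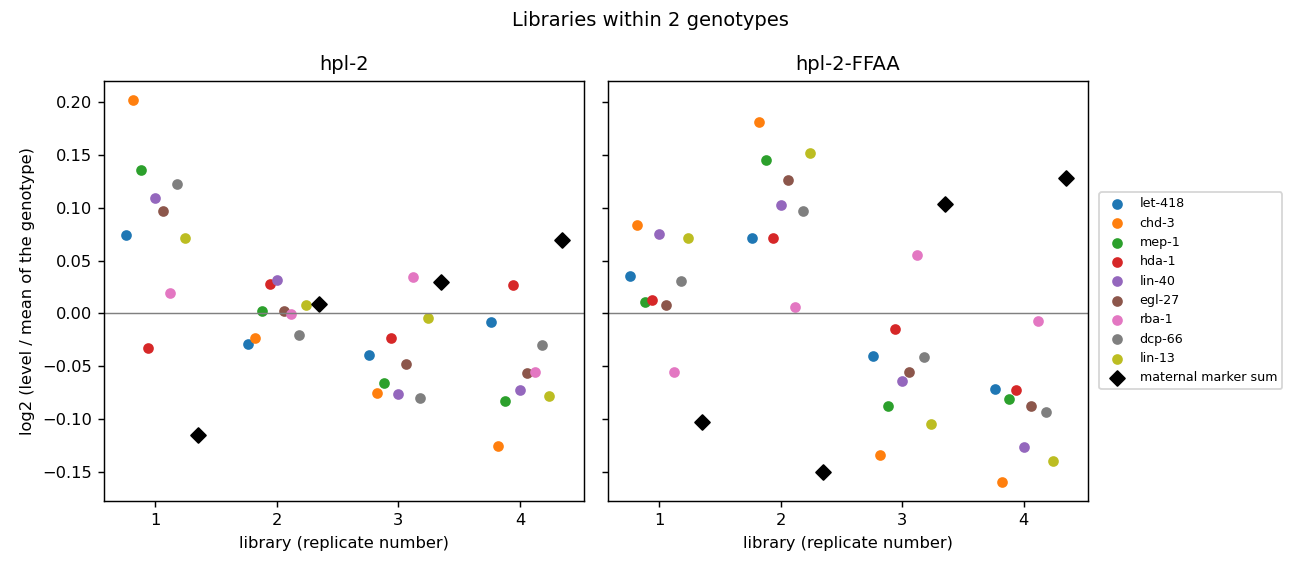
Level of each gene in the 4 hpl-2 and the 4 hpl-2-FFAA libraries as log2 over its genotype mean (coloured points), with the summed level of 15 maternal markers on the same scale (black diamonds). In hpl-2-FFAA 8 of 9 genes lie higher in libraries 1 and 2 than in 3 and 4, and the diamonds lie lower in 1 and 2. Replicate numbers carry no order.

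Other genes whose level over the 14 libraries was nearest in shape were picked by the root mean square difference of centred log2 CPM, from 7506 genes averaging 5 CPM or more. This is a description, over libraries that share genotype and depth. For chd-3 they were C35E7.5 (0.0316), dpy-22 (0.0352) and ZK1053.4 (0.0423), where the median over the genes was 0.362. For mep-1 they were dpy-22 (0.0425), acdh-10 (0.0427) and epg-2 (0.0470; median 0.345). For lin-13 they were rpl-3 (0.0413), his-59 (0.0543) and sca-1 (0.0555; median 0.327). his-59 is a histone gene with near-identical copies, so its counts are uncertain.

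Other SNF2 family remodelling genes, which encode the ATPases and subunits of chromatin remodellers beside NuRD, were counted next. This list and those below were also chosen with earlier results of these data known. Beside the list counts that follow, 20.2% of all tested genes were called higher and 21.6% lower in hpl-2, and 28.7% higher and 29.4% lower in met-2 hpl-2. In hpl-2 10 of 12 fell and 1 rose, with a median log2 fold change of -0.15 against 0.00 over all genes. The CHD family gene chd-7 averaged 1298 CPM in hpl-2 and 2089 in wild type (log2 -0.69), and xnp-1, the ATRX homolog, 326 and 413 CPM (log2 -0.34). In hpl-2-FFAA 0 of 12 were called by edgeR, with 2 at an unadjusted p under 0.05, beside 933 of 9498 tested genes. Without hpl-2-FFAA replicates 1 and 2, 2 were called lower, beside 488 of 9715 tested genes. With the replicate axis as a covariate 2 were also called lower, beside 219 of 9498. In met-2 hpl-2 6 rose and 2 fell, and the SWI/SNF subunit genes swsn-1 and let-526 rose by 0.41 and 0.55. Over the alternative settings the counts in met-2 hpl-2 ran from 3 to 6 higher and from 1 to 5 lower. Against hpl-2, 8 of 12 were higher in hpl-2-FFAA, where 18.7% of tested genes were called higher. Without hpl-2-FFAA replicates 1 and 2 the count was 5, beside 832 of 9715 tested genes. In met-2 hpl-2 9 were higher and 2 lower than in hpl-2, where 36.0% of tested genes were called higher and 35.2% lower.

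Relatives of NuRD and of class I deacetylases formed a list of 8. In hpl-2 1 of 8 fell, mbd-2, which encodes a methyl-CpG-binding domain protein (65.8 CPM in hpl-2 and 77.8 in wild type, log2 -0.24), and 0 rose. Over the alternatives 1 or 2 fell, with 2 in 7 of 25, among them without hpl-2-FFAA replicate 2 or replicate 4. In met-2 hpl-2 1 rose (lin-53, log2 0.08, adjusted p = 0.0499 in edgeR with Benjamini-Hochberg adjustment) and 2 fell, the corepressor gene sin-3 (-0.25) and the CoREST homolog spr-1 (-0.68). The lin-53 call was lost in 17 of 25 alternatives, among them without any 1 library of wild type or met-2 hpl-2, hpl-2 replicate 2, 3 or 4, or hpl-2-FFAA replicate 1 or 3. With library size alone 0 rose and 6 fell. In hpl-2-FFAA 0 of 8 were called by edgeR, and 0 had an unadjusted p under 0.05. lin-53, the RbAp-like relative of rba-1, had a log2 fold change of -0.08 in hpl-2 (SE 0.0328, adjusted p = 0.06 in edgeR with Benjamini-Hochberg adjustment).

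Partners of MEP-1 and LIN-13 and the SUMO pathway, which modifies several of these repressors, gave mixed counts. In hpl-2 4 of 11 rose and 3 fell, where 20.2% of tested genes were called higher and 21.6% lower. The 2 called genes of smallest adjusted p were pie-1, a germline zinc-finger gene whose protein binds MEP-1 (167 CPM in hpl-2 and 122 in wild type, log2 0.45), and mog-4, which encodes an RNA helicase-like partner of MEP-1 (-0.18). In hpl-2-FFAA 0 of 11 were called by edgeR, with 1 at an unadjusted p under 0.05, beside 933 of 9498 tested genes. In met-2 hpl-2 3 rose and 2 fell, and the lead genes were uba-2, a subunit of the SUMO-activating enzyme, at -0.62 and smo-1, the SUMO gene, at 0.33. Over the alternatives 3 or 4 rose and 2 to 7 fell, with the 7 under library size alone.

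**Figure D5:**
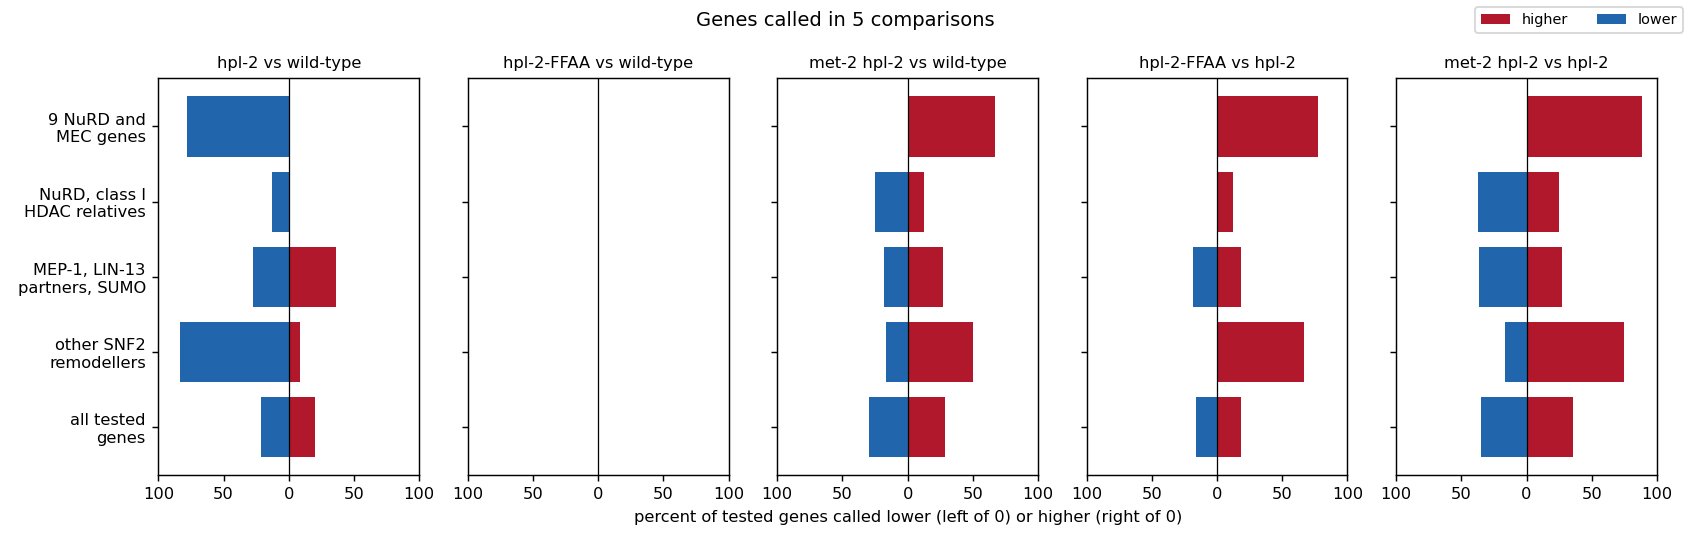
Percent of tested genes called lower (blue, left of 0) and higher (red, right of 0) in the 5 comparisons, for the 9 members, for 3 lists of related genes and for all 9498 tested genes (adjusted p under 0.05, edgeR). In hpl-2 against wild type 7 of 9 members and 10 of 12 other remodelling genes were lower, and in hpl-2-FFAA against wild type no bar of the lists is visible since 0 genes were called.

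Genes that other work places under Mi-2, MEP-1, EGL-27 or synMuv control are mostly P granule and patterning genes. In hpl-2 5 of 10 rose and 1 fell, the rises being deps-1, pgl-1, pgl-3 and glh-2 of the P granules and lin-3, which encodes an EGF-like ligand. deps-1 averaged 319 CPM in hpl-2 and 245 in wild type (log2 0.38), and pgl-1 308 and 235 CPM (log2 0.39). These 4 P granule genes are also supplied maternally, and 9 of the 15 maternal markers rose in the same comparison. In hpl-2-FFAA 0 of 10 were called by edgeR, and 0 had an unadjusted p under 0.05. In met-2 hpl-2 3 rose and 2 fell: glh-1 rose by 0.38 and deps-1 fell by 0.31. Against hpl-2, deps-1 had a log2 fold change of -0.34 in hpl-2-FFAA and of -0.69 in met-2 hpl-2. Apart from lin-53, the list genes called against wild type and given with values here had adjusted p of 5.24e-10 (uba-2) to 0.00336 (mog-4) in edgeR with Benjamini-Hochberg adjustment.

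Counting could touch some members. In WBcel235 lin-40, dcp-66 and lin-13 overlap exons of another counted gene on the opposite strand by 18, 22 and 44 bases. Whether strand was used in the counting is not stated, so reads in those bases cannot be told apart.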

How the data were processed

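Stranded, ribosome-depleted total RNA of C. elegans embryos was sequenced, per the labels' protocols. Some label fields name yeast cells and a temperature exposure, but the files hold worm genes and each library is labelled 20 °C. The authors deposited raw counts for 20392 genes with a gene width in bases. Trimmomatic 0.39 and genome build ce10 are named in the submitters' processing notes. The labels leave the aligner, the counter, its annotation and its use of strand unstated (not given in the sources used here). Symbols (19182 matched), positions and exon lengths come from WBcel235 and were not converted to ce10.

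Counts were tested with edgeR 4.0.16 (R 4.3.3): filterByExpr, TMM factors, then a quasi-likelihood test for each of 5 comparisons, with 14 libraries in 1 fit. SE is the size of the log2 fold change over the square root of F. DESeq2 1.42.0, other scalings, filters, depths and library sets were alternatives. A limit of 3 counts was 0.217 to 0.558 CPM, which covers counting error only. The labels name no batch. Since nothing states that replicates came from separate cultures, p-values reflect only the scatter among these libraries, which could be technical.

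The members and lists were chosen with earlier results of these data known. All 9 members are described, and of each of 4 pathway lists (41 genes) up to 2 called genes of smallest adjusted p are named per comparison; others were named after their values were seen. The fit was also run on simulated counts with independent libraries and few changed genes. These data differ in both, so that run is no support for the calls here. No sequences were used here.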

Additional observations from a re-analysis of the deposited data

How the results depend on the processing

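Over 25 alternatives, 1055 member values kept direction and call, 29 lost a call and 29 gained one, and the cause was not tested. For met-2 hpl-2 against wild type, library size alone gave 3 called members. For hpl-2-FFAA against wild type, where 74 genes and 0 members were called, fits of only the groups compared called 24 genes. The replicate axis as a covariate called 398 genes and 4 members there, but that axis was computed from these same libraries and lowers their scatter. Without hpl-2-FFAA replicates 1 and 2, 820 genes and 5 members were called there, and 1482 genes and 4 members against hpl-2. Without replicates 3 and 4, 49 genes and 1 member were called against wild type. Leaving out each library gave 26 to 108 genes for hpl-2-FFAA against wild type and 3 to 7 members for met-2 hpl-2 against wild type, with the low of 3 without met-2 hpl-2 replicate 3. A replicate block called 7, 0, 5, 7 and 8 members in the 5 comparisons, and 43 genes for hpl-2-FFAA against wild type. Of 19 same-numbered pairs 2 correlated above 0.1 (r -0.220 to 0.191), both of them hpl-2 with hpl-2-FFAA (0.162 and 0.191). Differently numbered pairs were not compared, so this does not settle whether the numbers pair the libraries. No called member changed sign. Uncalled values that did were lin-40 (-0.0368) and dcp-66 (-0.00493) in met-2 hpl-2 with library size alone, and in hpl-2-FFAA lin-13 (-0.0398) without replicates 1 and 2, and chd-3 (0.0301) and dcp-66 (0.0154) without 3 and 4. For rba-1 in hpl-2-FFAA against hpl-2 they ran to 3.01e-05 under a stricter filter, 0.0197 without hpl-2-FFAA replicates 1 and 2, and -0.0236 to 0.0128 over single omissions, and in hpl-2 against wild type from -0.0514 to 0.00307. For the named list genes 748 values kept direction and call and 2 lost it. Members had 970 to 23910 counts per library, so counting error is small, but depth and genotype cannot be told apart in met-2 hpl-2.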
